A study of Mus musculus with 61 samples.

Results

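The killer lectin-like receptors are C-type lectin-like proteins on the surface of natural killer (NK) cells and of some T cells. The 9 genes described here, Klrg1, Klrd1, Klrc1, Klrc2, Klrk1, Klrb1c, Klre1, Klra7 and Klra9, were chosen by symbol from the 24421 genes in the count tables, and each of the 9 was present there. A further 27 symbols begin with Klr and served as the rest of the family. The RNA-seq series holds 61 libraries in 17 groups, all labelled as C57BL/6 mice aged 2 months.

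The spleen groups were WT (n = 4), Stat5b Y665H (n = 5) and Stat5b Y665F (n = 7), mice in which the tyrosine named Y665 of the transcription factor STAT5B was changed in the germline to histidine or phenylalanine. Splenic T cells, enriched with a T cell isolation kit, came from WT (n = 4), Y665H (n = 3) and Y665F mice (n = 4) after 24 h of culture with IL-2 and IL-7, and from Y665F mice without interleukin (n = 3). Another Y665H T cell library, replicate 4, equalled the libraries of replicates 1 and 2 added together in all 24421 genes, with 5327354 reads against 3310342 and 2017012. It adds no independent measurement and was left out, so that its reads counted once. The CD4 cells were sorted naive CD4+ cells from pooled lymph nodes and spleens, activated through the T cell receptor and CD28, transduced with a retrovirus and sorted again as CD4+GFP+ cells after 48 h in IL-2. The vector was empty or encoded STAT5B, unchanged or with 1 of the changes N642H, Y665F and Y665H, each in Stat5a/b-null and in WT cells (n = 3 each). In the null cells a Cd4-Cre transgene deletes floxed Stat5a/b in CD4 and CD8 cells, and the genotype label names floxed Stat5a/b for all 30 CD4 libraries, those titled WT included. The labels do not give the zygosity of the knock-in mice, name the spleen material once as spleen and once as splenocytes, and name mammary tissue in the extraction protocol. No label says that replicates of a group came from separate animals, so the p-values measure the spread between these libraries.

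A spleen library held 24203179 to 43330536 reads assigned to genes, a T cell library 2017012 to 27394249 and a CD4 library 18825994 to 49850689. In the T cell library with the fewest reads, 1 CPM (a count scaled to the library size) is about 2 reads. A point mutation does not show in counts per gene, and Stat5b lay between 86.1 and 138 CPM in all spleen libraries. With the empty vector, Stat5b was at 2.78 to 9.49 CPM in Stat5a/b-null CD4 cells and at 187 to 209 CPM in WT CD4 cells. The NK gene Ncr1, which encodes the activating receptor NKp46, was detected in every spleen and T cell library, the isolated T cells included.

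As background, some of these receptors restrain a killer cell and some set it off. Inhibitory members carry a motif in the cytoplasmic tail that recruits phosphatases. Activating members signal through adaptor proteins such as DAP10 (Hcst) and DAP12 (Tyrobp). NK cells depend on IL-15, whose signal runs through STAT5, and CD8+ T cells acquire several of the same receptors as they differentiate. By role, KLRG1, CD94/NKG2A (Klrd1 with Klrc1) and the Ly49 receptors encoded by Klra7 and Klra9 are inhibitory. CD94/NKG2C (Klrd1 with Klrc2), NKG2D (Klrk1) and NK1.1 (Klrb1c) are activating, and the product of Klre1 pairs with either an activating or an inhibitory partner.

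The 9 genes lie on chromosome 6 of GRCm38. Klrg1 stands alone at 122270596-122282882 on the minus strand. The others form the NK gene cluster, from Klrb1c (128778485-128789215, minus strand) through Klre1 (129577905-129585827, plus strand), Klrd1 (129591782-129598775, plus strand), Klrk1 (129610323-129623864, minus strand), Klrc2 (129647496-129660689, minus strand) and Klrc1 (129666015-129678973, minus strand) to Klra9 (130178675-130193112, minus strand) and Klra7 (130218605-130233322, minus strand). Some of these genes share sequence with near copies, which can shift reads between them. Of the 50-base stretches in their transcripts, 38.6% of Klrc1, 31.5% of Klra9, 17.0% of Klrb1c, 16.3% of Klrc2 and 12.3% of Klra7 also occur in another gene, so the split between these genes and their copies is uncertain. Klrb1c also overlaps Gm44511, a gene on the same strand, over 413 exon bases. Klrg1, Klrd1 and Klrk1 share 0 such stretches, and Klre1 shares 0.28%.

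RefSeq promoters on GRCm38.p6 were at hand for 7 of the 9 genes, not for Klrg1 and Klrd1. Because most members moved together between genotypes, their 250 bases before the transcription start were searched on both strands for the Runx core TGTGGT, the STAT motif TTCNNNGAA and the T-box motif AGGTGTGA. The Runx core occurred in 5 of the 7 (Klrc1, Klrc2, Klrk1, Klrb1c and Klre1), against 14.05% of 32851 promoters. Of 16 other Klr genes with a promoter at hand, 3 had it. A gene counted if any of its promoters matched, whereas the percentages are over single promoters. TTCNNNGAA occurred in 1 of the 7, as TTCTTAGAA at position −189 from a start of Klra7 that lies inside its gene model, against 7.02% of promoters, and AGGTGTGA in 0 of the 7, against 1.12%. A match describes these letters and is not a binding site. The promoters of an activating member (Klrk1) and an inhibitory member (Klrc1) are shown with the Runx core in capitals, on the opposite strand in Klrc1. That of Klra9, the member furthest below WT in Y665H spleens, is shown as a promoter with 0 matches. All 3 are on the minus strand and read 5′ to 3′ toward the start, at chr6:129623865-129624114, chr6:129678974-129679223 and chr6:130193113-130193362.
Klrk1: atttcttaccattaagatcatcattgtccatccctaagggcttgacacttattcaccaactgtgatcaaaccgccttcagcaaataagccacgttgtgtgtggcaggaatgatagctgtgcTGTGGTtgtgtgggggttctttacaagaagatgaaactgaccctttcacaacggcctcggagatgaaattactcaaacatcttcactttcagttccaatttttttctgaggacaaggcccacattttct
Klrc1: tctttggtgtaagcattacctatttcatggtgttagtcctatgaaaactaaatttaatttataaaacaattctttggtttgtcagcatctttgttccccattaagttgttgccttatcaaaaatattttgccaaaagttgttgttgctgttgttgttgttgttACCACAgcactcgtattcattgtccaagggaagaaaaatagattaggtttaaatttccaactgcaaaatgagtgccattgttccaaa
Klra9: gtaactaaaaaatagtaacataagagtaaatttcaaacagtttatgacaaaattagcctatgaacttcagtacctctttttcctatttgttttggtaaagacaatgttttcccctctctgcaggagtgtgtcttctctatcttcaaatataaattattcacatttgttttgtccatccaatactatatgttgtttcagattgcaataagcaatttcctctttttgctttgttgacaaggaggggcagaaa

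Levels of different genes were compared per kilobase of exon, as CPM after TMM scaling divided by exon length. In WT spleen, Klrd1 led with 33.4 ± 3.09 CPM per kilobase (SD, n = 4). Next came Klrk1 with 9.63 ± 0.79, Klra7 with 9.13 ± 1.56, Klrc1 with 8.35 ± 0.41 and Klrb1c with 7.58 ± 0.78 (SD, n = 4), an order in which neighbours overlapped. Klra9 (5.38 ± 0.34), Klre1 (3.47 ± 0.48), Klrg1 (1.97 ± 0.24) and Klrc2 (1.12 ± 0.13; SD, n = 4) followed without overlap between neighbours. In Y665F spleen, Klrg1 stood at 5.83 ± 0.69 CPM per kilobase (SD, n = 7), with a mean above those of Klrb1c (4.87 ± 1.66), Klra9 (3.59 ± 2.03) and Klre1 (2.89 ± 1.14) that lie above it in WT spleen. All further levels are CPM.

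In spleens of Y665H mice, the receptors were lower than in WT as a group. Of the 9 genes, 8 were lower by edgeR's quasi-likelihood test (log2 fold change beyond 1 at an adjusted p under 0.05), against 0.438% of all 19418 genes called lower in this comparison. The ninth, Klrc1, passed the adjusted p but not the fold minimum. Each Y665H library lay below each WT library for all 9 genes, and the median log2 fold change was −1.20, against 0.000503 over all genes. The share of all genes without overlap between these groups was not counted, so the separation is a description. At an unadjusted p under 0.05, edgeR's test passed all 9 members, beside 32.9% of all genes. In spleens of Y665F mice the picture differed. Klrg1 alone was higher, 2.96-fold, against 0.572% of genes called higher, and 0 of the 9 were lower, against 0.628% of genes called lower. All 9 passed the filter of at least 10 reads over the libraries of the fit. In bulk samples, fewer cells of a type and less RNA per cell cannot be told apart.

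**Figure D1:**
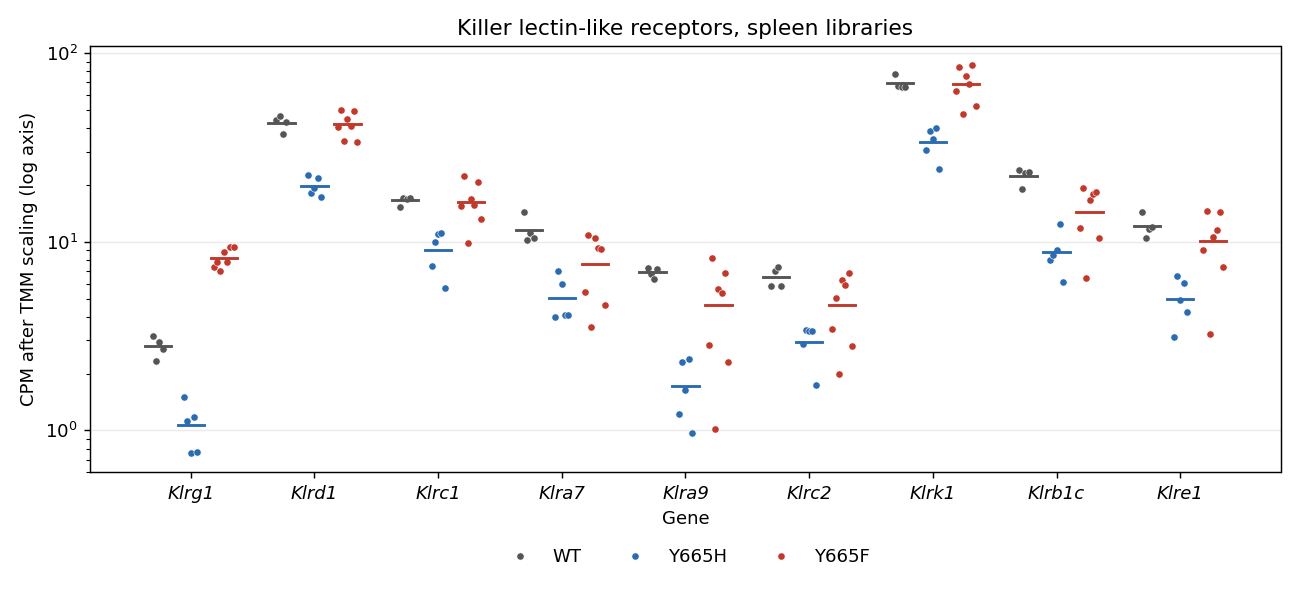
Level of the 9 receptors (CPM after TMM scaling, log axis) in each spleen library of WT (n = 4), Y665H (n = 5) and Y665F (n = 7) mice, with the group mean as a line. All 5 Y665H libraries sit below all 4 WT libraries for each gene, and Klrg1 is the gene whose 7 Y665F libraries, at 6.96 to 9.40 CPM, all sit above the WT libraries.

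Klrg1, an inhibitory receptor that binds cadherins and marks terminally differentiated effector cells, was at 3.15, 2.34, 2.94 and 2.71 CPM in WT spleens. Y665H spleens held 1.51, 1.12, 0.759, 1.17 and 0.769 CPM, and Y665F spleens 6.96 to 9.40 CPM with a median of 7.85. The 3 groups did not overlap, with Y665H lowest and Y665F highest. Against WT, the log2 fold change was 1.56 in Y665F (SE 0.16, adjusted p = 1.60e-05) and −1.38 in Y665H (SE 0.18, adjusted p = 0.000603). Between Y665F and Y665H it was 2.94 (SE 0.16, adjusted p = 2.59e-09), a 7.69-fold difference.

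Klrd1 encodes CD94, the shared chain of the NKG2 heterodimers, and was the most abundant member per kilobase. WT spleens held 44.5, 46.2, 37.1 and 43.2 CPM, Y665H spleens 22.5, 18.1, 19.2, 21.8 and 17.2 CPM, and Y665F spleens 33.7 to 50.2 CPM with a median of 41.3. All Y665H libraries lay below all others, while Y665F and WT overlapped throughout. The log2 fold change was −1.11 in Y665H (SE 0.12, adjusted p = 0.000322) and −0.03 in Y665F against WT (SE 0.11, adjusted p = 0.912), with an approximate normal interval from −0.25 to 0.19.

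Klrc1, the inhibitory partner NKG2A, was at 15.4, 17.1, 16.8 and 17.0 CPM in WT and at 7.44, 9.98, 10.97, 11.2 and 5.68 CPM in Y665H spleens. Y665F spleens spread from 9.85 to 22.4 CPM with a median of 15.7, so that they reached both below and above the WT range. Its difference between Y665H and WT was −0.87 on the log2 scale (SE 0.21, adjusted p = 0.00725), the smallest of the 9. Klrc2, the activating partner NKG2C, was at 5.82, 6.99, 7.31 and 5.83 CPM in WT and at 2.85, 3.39, 3.38, 3.37 and 1.74 CPM in Y665H spleens (log2 fold change −1.13, SE 0.29, adjusted p = 0.0101). In Y665F spleens Klrc2 ranged from 1.99 to 6.84 CPM with a median of 5.03. Neither partner differed between Y665F and WT by the test, with log2 fold changes of −0.02 for Klrc1 (SE 0.19, adjusted p = 0.953) and −0.49 for Klrc2 (SE 0.26, adjusted p = 0.226).

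Klra7 and Klra9 encode Ly49 receptors that bind classical major histocompatibility complex class I. Klra7 was at 14.4, 10.2, 11.2 and 10.4 CPM in WT, at 3.98, 6.98, 5.94, 4.07 and 4.08 CPM in Y665H, and from 3.54 to 10.8 CPM with a median of 9.17 in Y665F spleens. Klra9 showed the largest difference of the 9 in Y665H spleens, from 7.30, 6.77, 6.32 and 7.14 CPM in WT to 1.22, 2.32, 1.64, 2.40 and 0.970 CPM (log2 fold change −1.99, SE 0.41, adjusted p = 0.00363). Its Y665F libraries ran from 1.02 to 8.16 CPM with a median of 5.35, a wide range for 1 group. The Y665F group thus contained libraries as low as those of Y665H and others as high as WT. Against WT, the Y665F fold changes were −0.60 for Klra7 (SE 0.26, adjusted p = 0.132) and −0.59 for Klra9 (SE 0.36, adjusted p = 0.307) on the log2 scale.

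Among the activating receptors, Klrk1 (NKG2D, the receptor for stress-induced ligands) was at 77.6, 67.0, 66.1 and 66.0 CPM in WT and at 30.8, 38.5, 35.1, 40.03 and 24.2 CPM in Y665H spleens. Y665F spleens held 47.5 to 86.2 CPM with a median of 68.7, on both sides of the WT range. The log2 fold change was −1.03 in Y665H (SE 0.17, adjusted p = 0.00138) and −0.02 in Y665F (SE 0.15, adjusted p = 0.953), the latter with an interval from −0.32 to 0.28. Klrb1c, the NK1.1 antigen by which NK cells are identified in this strain, was at 24.1, 19.1, 23.3 and 23.4 CPM in WT, at 8.02, 8.52, 9.08, 12.4 and 6.08 CPM in Y665H, and from 6.43 to 19.4 CPM with a median of 16.7 in Y665F spleens. The Y665H libraries lay below all WT libraries, and 1 or more Y665F libraries overlapped each of the other groups. Its log2 fold change was −1.34 in Y665H (SE 0.25, adjusted p = 0.00233) and −0.64 in Y665F (SE 0.23, adjusted p = 0.0775). Klre1 was at 14.4, 10.4, 11.6 and 11.98 CPM in WT, at 3.14, 6.56, 4.93, 6.03 and 4.25 CPM in Y665H, and from 3.25 to 14.5 CPM with a median of 10.6 in Y665F spleens. It fell in Y665H by 1.28 on the log2 scale (SE 0.30, adjusted p = 0.00695), and its Y665F value was −0.26 (SE 0.28, adjusted p = 0.571).

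Between the mutants, 5 of the 9 genes were higher in Y665F than in Y665H spleens, against 1.27% of genes called higher. They were Klrg1, Klrd1 (log2 fold change 1.09, SE 0.11, adjusted p = 3.11e-06), Klrk1 (1.02, SE 0.15, adjusted p = 0.000146), Klre1 (1.01, SE 0.27, adjusted p = 0.0107) and Klra9 (1.40, SE 0.38, adjusted p = 0.0111). Klrk1 and Klre1 sit just past the fold minimum, and the count was 3 when any of 5 libraries was left out, namely Y665H replicates 1 and 5 and Y665F replicates 2, 5 and 6. The comparisons of both mutants with WT share the WT libraries, and that of Y665F with Y665H shares both mutant groups with them.

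**Figure D2:**
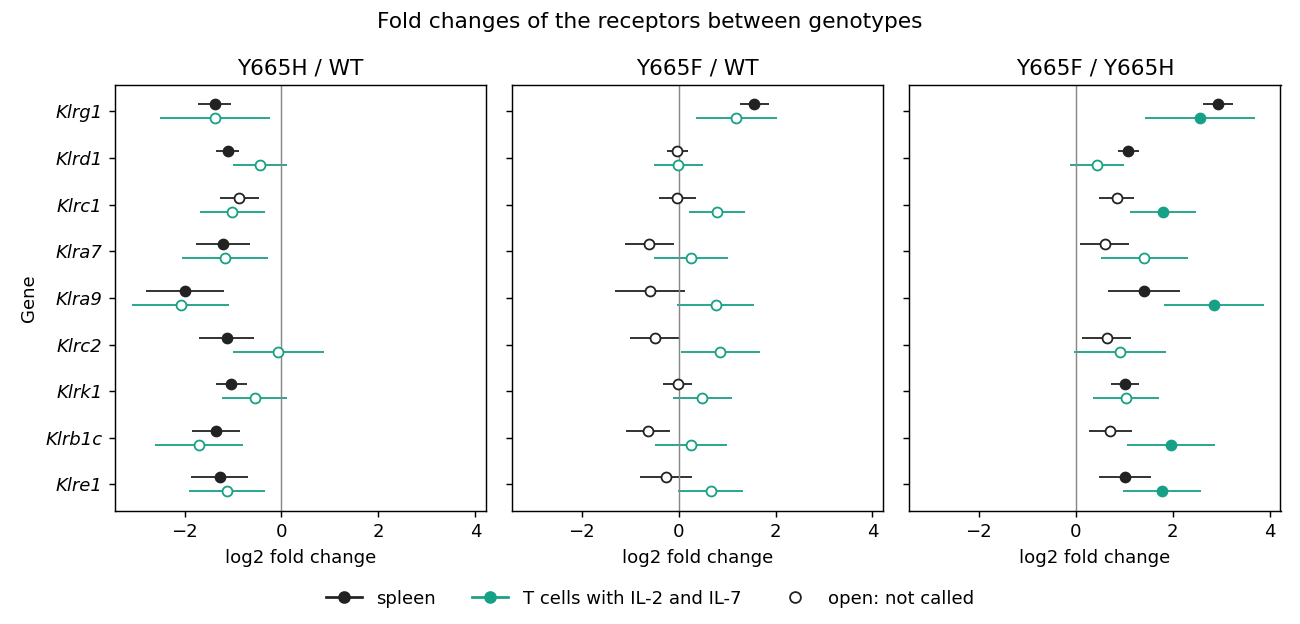
Log2 fold change of each receptor for Y665H against WT, Y665F against WT and Y665F against Y665H, in spleen (black) and in T cells with IL-2 and IL-7 (green), with bars for the approximate normal interval and filled points for called genes. In the spleen panel for Y665H the 9 values run from −1.99 to −0.87, whereas for Y665F only Klrg1, at 1.56, lies clear of 0 on the high side.

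Other cell types also moved between the spleen groups. Of 13 NK genes, 3 were lower in Y665H than in WT (Ncr1, Gzma and S1pr5) and 0 higher, their summed level was 218 to 296 CPM in Y665H, 316 to 390 CPM in WT and 293 to 444 CPM in Y665F, and none was at 0. Ncr1 was at 20.5 to 30.04 CPM in WT, 8.56 to 13.9 CPM in Y665H and 6.75 to 22.4 CPM in Y665F spleens, where its log2 fold change against WT was −0.86 (SE 0.24, adjusted p = 0.0283), under the fold minimum. The CD8 genes Cd8a and Cd8b1 summed to 162 to 185 CPM in WT, 76.4 to 108 CPM in Y665H and 199 to 304 CPM in Y665F, with 0 of 2 called in either mutant against WT. Cd8a passed the adjusted p but not the fold minimum in both, at 0.50 in Y665F (SE 0.10, adjusted p = 0.00356) and −0.89 in Y665H (SE 0.10, adjusted p = 0.000392). The 10 T cell genes summed to 555 to 664, 384 to 594 and 734 to 1006 CPM in the same order, also with 0 called in either. In Y665H spleens 4 of 6 erythroid and 7 of 7 neutrophil genes were higher than in WT, beside 3.93% of all genes called higher. Their sums were 323 to 2401 CPM and 120 to 1535 CPM against 504 to 960 CPM and 194 to 316 CPM in WT. Over all genes, Y665H replicate 1 stood apart from the other Y665H spleens. Its chi-square per degree of freedom, a measure of difference against sampling noise, was 135 to 190 with each of them. Among those others it was 18.8 to 40.4. In Y665F spleens 5 of the 7 neutrophil genes were higher, with a sum of 389 to 951 CPM. Of 12 memory and effector CD8 genes, 1 was higher in Y665F and 1 lower in Y665H than in WT, with sums of 597 to 708, 436 to 545 and 585 to 631 CPM in Y665F, Y665H and WT. The 6 regulatory T cell genes summed to 185 to 249, 87.7 to 136 and 135 to 158 CPM in the same order, with 1 higher in Y665F and 0 called in Y665H. Between the mutants 4 genes of each of these lists were higher in Y665F, as were 6 of the 13 NK genes. Also higher there were 2 of 2 CD8 genes and 5 of 10 T cell genes, while 4 of 6 erythroid genes were lower. Of all genes, 1.27% were called higher and 4.01% lower between the mutants. Of the 7 neutrophil genes 0 were called between the mutants. The part of all these lists in the receptor differences was not tested.

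Set beside Ncr1 in the same library, the ranges of Y665H and WT spleens overlapped for every member but Klra9. The ratio of Klrk1 to Ncr1 was 2.71 ± 0.40 in WT (SD, n = 4) and 2.79 ± 0.19 in Y665H (SD, n = 5), that of Klrd1 was 1.70 ± 0.41 and 1.67 ± 0.31, and that of Klra7 was 0.448 ± 0.048 and 0.418 ± 0.095. Klra9 held 0.222 to 0.330 in WT and 0.107 to 0.178 in Y665H. Beside Cd8a, too, the ranges of Y665H and WT overlapped for every member but Klra9, narrowly for Klrd1. The ratio of Klra9 to Cd8a was 0.0539 to 0.0632 in WT and 0.0169 to 0.0354 in Y665H. In Y665F spleens, Klrg1 reached 0.351 to 1.03 times the level of Ncr1, against 0.104 to 0.114 in WT and 0.054 to 0.132 in Y665H. The ratio of Klrk1 was 3.68 to 7.04 in Y665F and 2.33 to 3.27 in WT, also without overlap. That of Klrc1 was narrowly without overlap, at 0.841 to 1.53 against 0.512 to 0.837. The other members overlapped, such as Klrb1c, whose 0.867 to 1.21 met the WT range of 0.803 to 0.947. Ncr1 was low in Y665F, while the 13 genes listed for NK cells had a mean sum of 381 CPM against 364 CPM in WT and a median log2 fold change of 0.15. That list is not specific to NK cells. It summed to 146 to 310 CPM in the sorted Stat5a/b-null CD4 cells with the empty vector. Its sum therefore gives no measure of how many NK cells a spleen held. Set beside Cd8a instead, every member but Klrg1 and Klre1 was lower in Y665F than in WT without overlap, narrowly for Klrc1. Klrk1 was at 0.331 to 0.4995 against 0.528 to 0.672 in WT, and Klrd1 at 0.212 to 0.297 against 0.335 to 0.385. Klre1 overlapped, and Klrg1 was higher, at 0.0435 to 0.0591 against 0.0186 to 0.0273. These ratios are descriptions with no test.

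**Figure D3:**
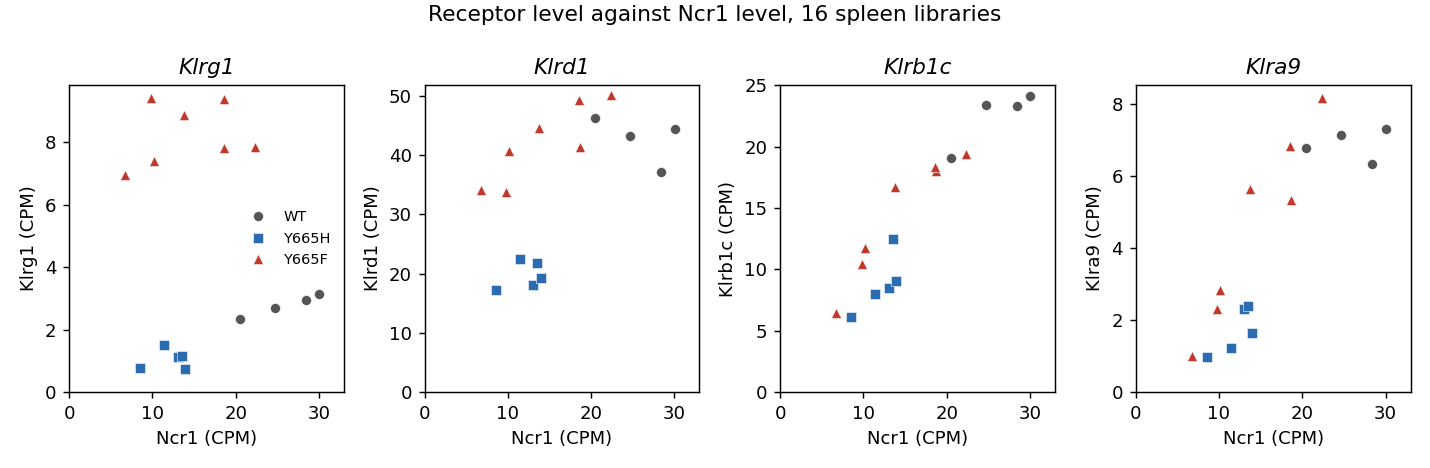
Level of Klrg1, Klrd1, Klrb1c and Klra9 (CPM) against the level of the NK gene Ncr1 (CPM) in the 16 spleen libraries, by genotype. Klrb1c and Ncr1 go together across all genotypes, while Klrg1 lies between 6.96 and 9.40 CPM in the Y665F libraries whether Ncr1 is at 6.75 or at 22.4 CPM.

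How the members varied among themselves was described by Pearson's r of the deviations of log2(CPM + 1) from the group mean over the 16 spleen libraries, which share depth and composition, so no p is given. Klrb1c and Klra9 went together most closely (r = 0.941), followed by Klre1 with Klra9 (0.934) and Klrk1 with Klra9 (0.919). Klrg1 stood apart from the other 8, with r between 0.188 and 0.390. Klrd1 was intermediate, with r between 0.549 and 0.765 to the other 7. Among 14248 genes, those most like a member within groups were Ncr1 (0.929) for Klrb1c after Klra9, Gzma (0.940) for Klre1, Samd3 (0.927) for Klra7 and Pogk (0.874) for Klrd1. For Klrg1 they were Hoxb4 (0.882), Tor3a (0.852) and Rin2 (0.848). Its r was 0.331 with Ncr1, 0.556 with Cd8a and 0.773 with Eomes. For the other members r with Eomes lay between 0.469 (Klrc1) and 0.744 (Klrc2). With Cd8a, r was highest for Klrc2 (0.791) and Klrd1 (0.778), and between 0.492 (Klra7) and 0.752 (Klrk1) for the rest.

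In splenic T cells cultured with IL-2 and IL-7, the differences that passed the test lay between the mutants. Of the 9 receptors, 5 were higher in Y665F than in Y665H cells (Klrg1, Klrc1, Klrb1c, Klre1 and Klra9), against 1.84% of the 22295 genes tested. Against WT, 0 of 9 were called in Y665F cells, beside 1.32% of genes called in either direction, and 0 of 9 in Y665H cells, beside 0% of genes. At an unadjusted p under 0.05, edgeR's test passed 2 members in Y665F against WT, beside 18.1% of all genes, and 6 in Y665H against WT, beside 4.81%. DESeq2 called 1 member in each, Klrg1 in Y665F (beside 3.92% of genes) and Klra9 in Y665H (beside 0.126%). All 9 passed the filter on low counts. The median log2 fold change of the 9 was 1.78 between the mutants, against 0.15 over all genes, 0.67 in Y665F against WT, beside 0.08, and −1.12 in Y665H against WT, beside −0.12.

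The calls between the mutants rest on 3 Y665H libraries. The count was 2 without Y665H replicate 1 (Klrc1 and Klra9), with 0.749% of genes called higher, and 3 without replicate 2 (Klrg1, Klrc1 and Klra9), with 0.987%. It was also 3 when the summed library stood in place of both, with 1.17% of genes called higher. With all 4 Y665H libraries as deposited, in which the reads of replicates 1 and 2 count a second time, it was 7, with Klrk1 and Klra7 added and 3.43% of genes called higher. Y665H replicates 1 and 2 and Y665F replicate 3 were the shallowest, the last with 2851451 reads. Without these 3 libraries 0 of the 9 were called between the mutants, with 0.130% of genes called higher, in a fit that leaves Y665H with replicate 3 alone and assumes that it varies like the other groups.

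WT replicate 1 and Y665F replicate 3 stood apart. WT replicate 1 had Ncr1 at 48.7 CPM where the other WT libraries had 9.44 to 13.5, and its 9 receptors summed to 406 CPM against 150 to 210 CPM. Without that library, 2 members were called higher in Y665F than in WT, Klrk1 (log2 fold change 1.05, adjusted p = 0.0313) and Klre1 (1.19, adjusted p = 0.0437), with 1.78% of all genes called higher, and 0 in Y665H against WT, with 0% of genes called. The library was picked out partly by its high receptor levels. Leaving it out therefore raises the receptor fold changes against WT, and these calls are not separate evidence. Y665F replicate 3 had the lowest T cell sum of the stimulated cells (1087 CPM, against 1743 to 3199 CPM in the others) and the highest sums of B cell and erythroid genes (703 and 807 CPM, against at most 206 and 69.6 CPM). Without it the same 5 members were called between the mutants, with 1.71% of genes called higher.

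**Figure D4:**
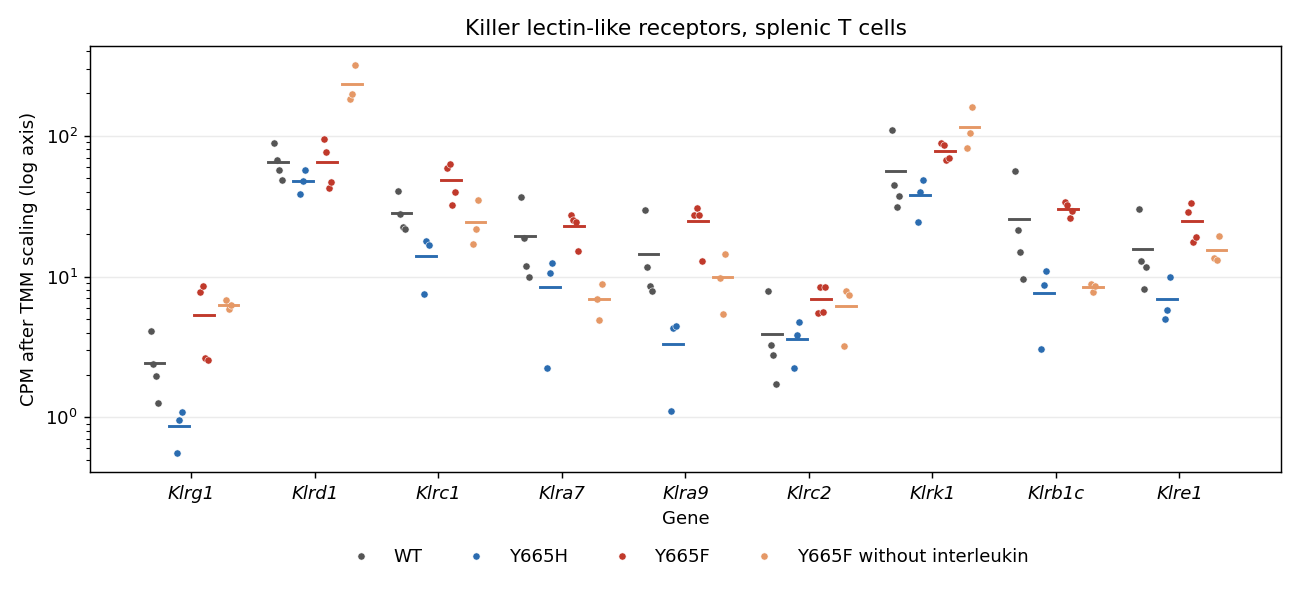
Level of the 9 receptors (CPM after TMM scaling, log axis) in each splenic T cell library, for WT (n = 4), Y665H (n = 3) and Y665F (n = 4) cells with IL-2 and IL-7 and Y665F cells without interleukin (n = 3), with the group mean as a line. The Y665F libraries with interleukins lie above those of Y665H for every member but Klrd1, and 1 WT library lies above the other 3 for all 9 genes.

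Klrg1 was at 4.10, 2.40, 1.97 and 1.25 CPM in WT T cells, at 0.558, 0.963 and 1.09 CPM in Y665H and at 7.72, 8.52, 2.64 and 2.54 CPM in Y665F T cells. The Y665H values rest on 2 to 16 reads per library, and the Y665F libraries fell into a higher and a lower pair. The log2 fold change between the mutants was 2.56 (SE 0.58, adjusted p = 0.0136). Against WT it was 1.19 in Y665F (SE 0.43, adjusted p = 0.162) and −1.38 in Y665H (SE 0.58, adjusted p = 0.943). Klra9 was the other member with a difference of this size, at 29.9, 11.7, 8.55 and 7.93 CPM in WT, 1.12, 4.34 and 4.45 CPM in Y665H and 27.5, 30.8, 27.3 and 12.9 CPM in Y665F T cells. Its log2 fold change between the mutants was 2.85 (SE 0.52, adjusted p = 0.00275), and all Y665H libraries lay below those of both other groups. The Y665H value of 1.12 CPM rests on 4 reads.

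Klrb1c held 56.2, 21.5, 14.97 and 9.58 CPM in WT, 3.07, 8.67 and 11.01 CPM in Y665H and 33.8, 32.2, 26.1 and 29.2 CPM in Y665F T cells, a log2 fold change of 1.958 between the mutants (SE 0.46, adjusted p = 0.0185). Klrc1 was at 40.6, 27.8, 22.6 and 21.9 CPM in WT, 7.53, 17.8 and 16.6 CPM in Y665H and 58.7, 63.4, 32.3 and 39.7 CPM in Y665F T cells (log2 fold change 1.80, SE 0.35, adjusted p = 0.00417). For both genes the mutants did not overlap. Klre1 (log2 fold change 1.78, SE 0.41, adjusted p = 0.0145) was also higher in Y665F than in Y665H without overlap. Klra7 (1.42, SE 0.46, adjusted p = 0.111), Klrk1 (1.04, SE 0.35, adjusted p = 0.127) and Klrc2 (0.92, SE 0.49, adjusted p = 0.405) did not overlap between the mutants either but missed the test. The share of all genes without overlap between the mutants was not counted. Klrd1, at 94.2, 76.4, 42.3 and 46.9 CPM in Y665F and 38.8, 47.7 and 57.1 CPM in Y665H T cells, overlapped (0.44, SE 0.29, adjusted p = 0.507), with an interval from −0.12 to 1.00. Of 17 alternatives, the call was kept in 16 for Klrc1 and Klra9, in 14 for Klrg1 and in 13 for Klrb1c and Klre1.

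Ncr1 was at 21.8 to 30.6 CPM in Y665F and 5.85 to 10.8 CPM in Y665H T cells, without overlap, and missed the test (log2 fold change 1.48, SE 0.45, adjusted p = 0.0774). The 13 NK genes summed to 886 to 1240 CPM in Y665F, 418 to 636 CPM in Y665H and 677 to 990 CPM in WT T cells, with Gzma and Il18rap called higher and 0 lower between the mutants. Cd8a and Cd8b1 summed to 493 to 1207 CPM, 623 to 796 CPM and 805 to 1147 CPM in the same order, with 0 of 2 called. Between the mutants 4 of 12 memory and effector CD8 genes, 2 of 8 B cell genes and 1 of 6 regulatory T cell genes were also higher in Y665F, with sums of 497 to 1189, 19.3 to 703 and 364 to 697 CPM against 312 to 525, 13.4 to 38.1 and 142 to 310 CPM in Y665H. Against WT, 4 of 7 neutrophil, 1 of 8 B cell, 1 of 4 erythroid and 1 of 13 NK genes were higher in Y665F. Of 2 CD4 T cell genes, 1 was lower. Neutrophil genes summed to 69.5 to 284 CPM in Y665F, 22.0 to 71.0 CPM in Y665H and 6.29 to 13.2 CPM in WT T cells. The CD4 T cell genes summed to 84.3 to 237, 212 to 395 and 338 to 394 CPM in the same order. Relative to Ncr1, Klrb1c was at 1.26 ± 0.18 in Y665F (SD, n = 4) and 0.830 ± 0.268 in Y665H (SD, n = 3), and Klrk1 at 3.23 ± 0.48 and 4.35 ± 0.155. The part of these cell types in the receptor differences was not tested.

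Whether a genotype acted differently in the T cells than in spleen was examined in a single fit over both materials, a test chosen after the levels were seen. For Y665F against WT, 0 of 9 members differed between materials at an adjusted p under 0.05, with 8.06% of genes passing, and the smallest value was that of Klrc2 (difference 1.36 on the log2 scale, SE 0.48, adjusted p = 0.0694). For Y665H against WT, 0 of 9 differed, with 1.21% of genes passing. For Klrg1 the differences were −0.33 (SE 0.42, adjusted p = 0.649) and 0.09 (SE 0.61, adjusted p = 0.998).

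Between Y665F T cells with and without interleukins, members differed in opposite directions. Compared with cells without interleukin, 2 of the 9 genes were higher after IL-2 and IL-7, against 2.04% of genes called higher, and 1 was lower, against 0.592% called lower. Klrd1 fell from 184, 197 and 317 CPM to 94.2, 76.4, 42.3 and 46.9 CPM (log2 fold change −1.83, SE 0.28, adjusted p = 0.000165). Klrb1c rose from 8.89, 7.72 and 8.52 CPM to 33.8, 32.2, 26.1 and 29.2 CPM (1.86, SE 0.44, adjusted p = 0.0152), and Klra7 from 6.93, 4.91 and 8.86 CPM to 27.3, 25.3, 24.4 and 15.2 CPM (1.73, SE 0.45, adjusted p = 0.0300). None of the 3 overlapped between the groups. Klrg1 was at 6.30 ± 0.49 CPM without interleukin (SD, n = 3) and 5.36 ± 3.21 CPM with it (SD, n = 4), a log2 difference of −0.19 (SE 0.45, adjusted p = 0.861) with an interval from −1.07 to 0.69.

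Klrc1, the partner of Klrd1, did not follow it, with 16.96, 21.9 and 34.8 CPM without and 58.7, 63.4, 32.3 and 39.7 CPM with interleukins (log2 fold change 0.99, SE 0.32, adjusted p = 0.110). Klrk1 was at 81.9, 105 and 160.4 CPM without and 88.2, 86.1, 67.8 and 69.9 CPM with interleukins (−0.57, SE 0.33, adjusted p = 0.424). Ncr1 was higher with interleukins (2.36, SE 0.45, adjusted p = 0.00215), from 3.74 to 5.69 CPM up to 21.8 to 30.6 CPM, and so was Cd8a (1.09, SE 0.25, adjusted p = 0.00980). Without interleukin, Klrd1 thus stood at 32.4 to 84.7 times the level of Ncr1, against 1.82 to 3.48 times with it. When any of the 3 libraries without interleukin was left out, 1 member remained called (Klrd1), and Klrb1c and Klra7 were lost. The study describes T cells without interleukin as sequenced directly after isolation. The comparison is then also one of cultured with uncultured cells, and the effects of the interleukins and of the culture cannot be told apart. Only Y665F cells were sequenced without interleukin, so no such comparison exists for WT or Y665H.

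In the transduced CD4 cells the receptors were close to the limit of counting. Klrg1 had 0 to 14 reads per library, Klra7 and Klra9 at most 5 and 4 reads, and Klrc2 and Klre1 at most 8 and 7 reads. Klrd1, Klrc1 and Klrk1 were the members with most reads, each highest in the third library of Stat5a/b-null cells with the Y665H vector, at 3.86, 3.86 and 3.38 CPM. In spleen the same 3 genes had medians of 41.3, 15.7 and 68.7 CPM in the Y665F libraries alone. Where a library has 0 reads, up to 3 reads at its depth cannot be told from none, and this limit covers counting error only. Cd4 lay between 633 and 1184 CPM, Cd8a at most at 0.449 CPM and Ncr1 at most at 0.283 CPM over all CD4 libraries. The CD8 list as a whole summed to 5.86 to 20.5 CPM and the NK list to 37.6 to 310.2 CPM.

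No member was called in any of the 9 CD4 comparisons by edgeR or DESeq2, and 0 passed an unadjusted p under 0.05 in each. In Stat5a/b-null cells this stood beside 0.477% of 20113 genes called in either direction for STAT5B against the empty vector, 2.88% for N642H, 2.37% for Y665F and 0.0249% for Y665H. In WT cells it stood beside 0.00975%, 0.985%, 0.707% and 0.00488% of 20509 genes in the same order, and between null and WT cells with the empty vector beside 4.68% of 21975 genes. These shares come from fits that leave out the replicate number. Klra9 had under 10 reads over either background and was tested only across both. When Y665F replicate 3 was left out of the WT cells, 1 member (Klrb1c) was called lower, with 0 reads in both remaining Y665F libraries, while 2.08% of 20201 genes were called in either direction.

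The summed level of the 9 receptors went with the replicate number instead. In Stat5a/b-null cells the 5 libraries numbered 3 held 5.01 to 11.98 CPM over the 5 vectors, against 0.783 to 3.07 CPM in the 10 libraries numbered 1 or 2. In WT cells the 5 libraries numbered 1 held 3.11 to 3.69 CPM, against 0.924 to 1.89 CPM in the other 10. Neither split overlapped. The NK list went the same way in null cells, where replicate 3 was highest for all 5 vectors at 183 to 310.2 CPM against 87.1 to 168 CPM in the other 10 libraries. In WT cells it did not, at 43.7 to 60.2 CPM in replicate 1 and 37.6 to 62.7 CPM in the others. Its part in the receptor sums was not tested. What a number marks in these cells is not given in the labels.

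**Figure D5:**
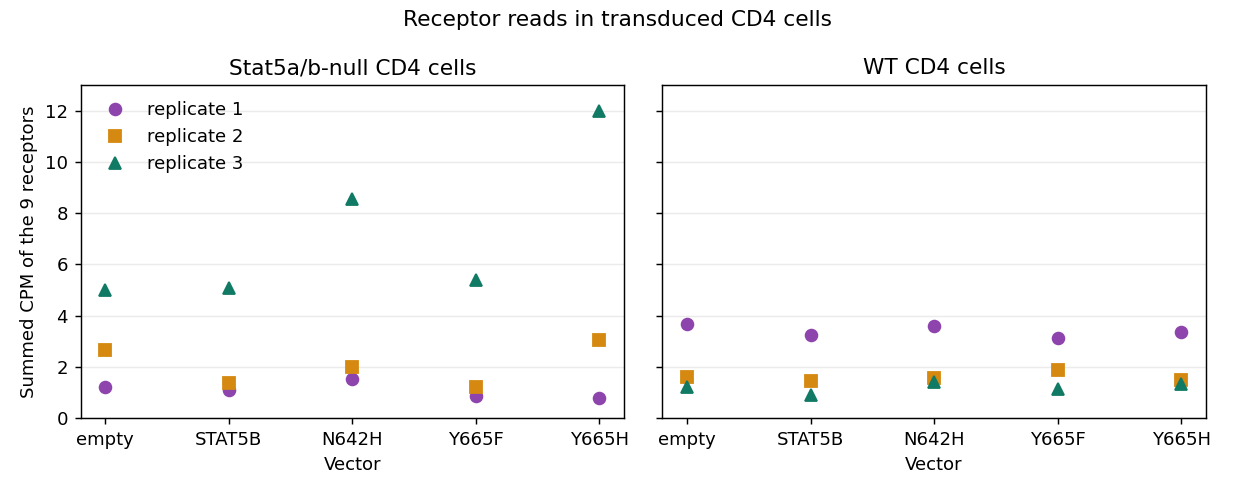
Summed CPM of the 9 receptors in each CD4 library, by vector and by replicate number, in Stat5a/b-null cells (left) and WT cells (right). Replicate 3 is highest for all 5 vectors in null cells and replicate 1 for all 5 vectors in WT cells.

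Of 20 further Klr genes tested in spleen, 6 were lower in Y665H than in WT and 0 higher, namely Klra1, Klra10, Klra14-ps, Klra18, Klrb1a and Klrc3, with log2 fold changes from −1.53 (Klra10) to −1.002 (Klra1). In Y665F spleens 2 of the 20 were lower, Klra18 (−1.65, SE 0.33, adjusted p = 0.00398) and Klri2 (−1.09, SE 0.19, adjusted p = 0.00179), the latter a partner of Klre1 that was at 8.66 CPM on average against 18.4 CPM in WT. Between the mutants Klra10, Klra23 and Klra5 were higher in Y665F spleens. Of all genes in spleen, 0.438% were called lower in Y665H and 0.628% lower in Y665F against WT, and 1.27% higher between the mutants. The share called higher between the mutants in T cells was 1.84%. In T cells with interleukins 2 of 18 were higher in Y665F than in Y665H, Klrb1b (1.63, SE 0.41, adjusted p = 0.0283) and Klrg2 (1.963, SE 0.50, adjusted p = 0.0287), and Klri2 was higher with interleukins than without (1.70, SE 0.47, adjusted p = 0.0434). In CD4 cells Klrb1f, named after its values were seen, was the only one called. It was higher in Stat5a/b-null than in WT cells with the empty vector (2.64, SE 0.54, adjusted p = 0.00116), beside 4.68% of genes called. In null cells it was lower with N642H than with the empty vector (−2.05, SE 0.48, adjusted p = 0.00924), beside 2.88% of genes called. The 15 further Klr genes with enough reads over all CD4 libraries summed to little. With the empty vector they summed to 2.26 to 3.11 CPM in null and 1.06 to 1.75 CPM in WT cells.

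Of 17 adaptors and signalling proteins of these receptors, 0 were called in either mutant against WT, with medians of 0.07 in Y665F and −0.11 in Y665H, and 2 were higher in Y665F than in Y665H, the T cell kinases Zap70 (log2 fold change 1.08, SE 0.15, adjusted p = 8.47e-05) and Lck (1.06, SE 0.12, adjusted p = 1.79e-05). In T cells 0 of the 17 were called in any comparison. In Y665F against WT spleens Zap70 (0.97, SE 0.16, adjusted p = 0.00119), Lck (0.77, SE 0.13, adjusted p = 0.00163) and Hcst (0.56, SE 0.18, adjusted p = 0.0468) passed the adjusted p but not the fold minimum. Tyrobp, the adaptor DAP12, was at 43.6 to 79.4 CPM in WT, 49.7 to 77.5 CPM in Y665H and 46.7 to 64.1 CPM in Y665F spleens, with all groups overlapping. Hcst, the adaptor DAP10 of NKG2D, was at 6.82 to 11.2 CPM, 5.98 to 9.91 CPM and 9.80 to 16.5 CPM in the same order.

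Of the ligands, 14 were tested in spleen and 0 were called in any comparison. In T cells with interleukins, 1 of 13 was lower in Y665F than in WT, Clec2d, which encodes a ligand of NKR-P1 receptors (log2 fold change −1.75, SE 0.31, adjusted p = 0.00495). It was also lower in Y665F than in Y665H (−2.23, SE 0.33, adjusted p = 0.000379). H2-T23, the Qa-1 molecule that CD94/NKG2 receptors recognise, was higher in Y665F T cells with interleukins than without (1.21, SE 0.30, adjusted p = 0.0224).

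The 4 genes Cish, Socs2, Il2ra and Il2rb, known targets of STAT5, were all higher in Y665F than in Y665H in both spleens and T cells with interleukins, and higher in Y665F T cells with interleukins than without. In Y665F against WT spleens 1 of the 4 was called, Cish (log2 fold change 1.81, adjusted p = 8.45e-06), and 0 of the 4 in Y665H against WT spleens or in either mutant against WT in T cells.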

How the data were processed

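Per the submitters' processing notes and the study's methods, the authors trimmed total RNA-seq reads (Trimmomatic 0.36), aligned them to mm10 with STAR and counted them with HTSeq 0.9.1; the deposited files hold raw counts per gene symbol. The 5 closing HTSeq lines, 28.4% to 85.7% of each library's entries, entered neither library sizes nor tests. Groups came from the sample titles. Among all 61 libraries 1, Y665H T cells replicate 4, was in every gene the sum of 2 others (replicates 1 and 2 of its group). It was left out of the fits, a departure from the planned design made after seeing the data.

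With edgeR 4.0.16 (R 4.3.3), genes with at least 10 reads over a fit's libraries were scaled by TMM and tested by glmQLFit and glmQLFTest, adjusted by Benjamini-Hochberg over all genes of the fit. Separate fits held spleens, splenic T cells, null CD4 cells and WT CD4 cells, and all 30 CD4 libraries for null against WT. Called genes passed 0.05 on the adjusted p and 1 on the absolute log2 fold change. Overlap of libraries between groups was described for the named genes and was not counted over all genes. The SE was taken from the F statistic, and intervals from the SE by the normal approximation. The genes named are the 9 members, called genes among the family, adaptors, ligands and STAT5 targets (and those with a stated role), and the 3 genes most like a member. The members and lists were chosen with earlier results of these data known.

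Alternatives were RLE factors, DESeq2 1.42.0, filterByExpr, no filter, each pair of groups alone, 1 RUVr factor from the residuals of a first fit, no fold minimum, the replicate block and leaving out each library. Same-numbered libraries deviated together (r above 0.1) in 30 of 30 pairs in null and 30 of 30 in WT CD4 cells, but in 5 of 19 in T cells and 4 of 13 in spleens. All 85 replicate pairs of the remaining libraries differed beyond sampling noise. The interaction fit and the fits without the 3 shallowest T cell libraries, with the summed library, and with it in place of its parts were chosen after seeing the data. Gene models were GENCODE M21 (GRCm38). The scripts were tested on simulated data. Limits for counts of 0 cover counting error only.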

Additional observations from a re-analysis of the deposited data

Results flagged for a closer look

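Of 45 combinations of a member and a group of 4 to 7 libraries, 3 held a library far from the others by Dixon's test, and chance flags about 1 in 20. Klrk1 was at 77.6 CPM in WT spleen replicate 1, where the others lay between 66.0 and 67.0 CPM. In WT T cells replicate 1, Klrk1 was at 111 CPM, against 31.0 to 44.5 CPM in the others. Klrb1c was at 19.1 CPM in WT spleen replicate 2, below the 23.3 to 24.1 CPM of the others. No cause of these values was tested.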

How the results depend on the processing

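In spleen, the number of members called was 1 in Y665F against WT under every alternative run. In Y665H against WT it was 8, between 6 and 8 when a library was left out and between 6 and 9 under the other alternatives. Between the mutants it was 5, between 3 and 5 when a library was left out and between 4 and 7 otherwise. In T cells with interleukins, the count in Y665F against WT was 0, or 0 to 2 when a library was left out and 1 with DESeq2. In Y665H against WT it was 0 when any library was left out and 1 with DESeq2. Between the mutants it was 5, or 2 to 5 when a library was left out, 0 without the 3 shallowest libraries, 3 with the summed Y665H library in place of its parts and 5 to 7 in the other alternatives, 7 with all libraries as deposited among them. For interleukins it was 3, or 1 to 4 when a library was left out and 2 to 4 otherwise. In the CD4 comparisons the counts were 0 under every alternative except in WT cells with Y665F, where they were 0 to 1 when a library was left out.

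With the replicate block, 6 members were called in Y665H against WT and 4 between the mutants in spleen, and 5 between the mutants in T cells. Over all genes, these block fits called 580, 654 and 219, against 848, 1025 and 557 in the main fits. They kept only replicate numbers common to both groups. The labels do not say whether equal numbers pair libraries there. Same-numbered libraries deviated together in 4 of 13 pairs in spleens and 5 of 19 in T cells, so a pairing was neither shown nor excluded. In CD4 cells, where same-numbered libraries deviated together in every pair, the replicate block left every count of members at 0. Over all genes it called 204, 757, 650 and 21 in null cells for STAT5B, N642H, Y665F and Y665H against the empty vector. Without the block these were 96, 579, 476 and 5. In WT cells it called 86, 532, 501 and 1 in the same order, against 2, 202, 145 and 1 without it.

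Of 63 log2 fold changes in spleen and T cells over 1098 alternatives, 1017 kept their direction and side of the threshold, 40 lost the call, 11 gained it and 30 changed sign. The sign changes were in 8 results, none of them called. In Y665F against WT spleens, leaving out a library gave −0.076 to 0.032 for Klrd1, −0.10 to 0.082 for Klrc1 and −0.083 to 0.066 for Klrk1. In Y665F against WT T cells it gave −0.24 to 0.18 for Klrd1, which was also 0.098 with RLE factors, 0.022 with filterByExpr, 0.097 with DESeq2 and 0.15 without the 3 shallowest libraries. In Y665H against WT T cells it gave −0.40 to 0.52 for Klrc2 and −0.80 to 0.014 for Klrk1; Klrc2 was also 0.036 with RLE factors, 0.0044 with filterByExpr, 0.034 with DESeq2, 0.29 without the 3 shallowest libraries and 0.0037 with the summed library in place of its parts. For interleukins it was −0.50 to 0.047 for Klrg1 and −0.12 to 0.40 for Klrc2. The causes were not tested. Scaling to the library total moved 2 of 63 mean levels by more than 1 SD, those of Klrg1 (7.18 CPM) and Klrb1c (9.51 CPM) in Y665F T cells without interleukin. Low counts limit Klrg1 in Y665H T cells and, in the CD4 cells, the members with few reads. In Y665H T cells the fewest reads in a library were also low for Klra9 (4), Klrc2 (8), Klra7 (8), Klrb1c (11) and Klre1 (12). In Y665F T cells with interleukins, Klrg1 had as few as 9 reads.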
